A study of Homo sapiens with 12 samples.

Results

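The 10 genes described here encode amino acid transporters of the plasma membrane that are known as targets of the cellular stress response: SLC7A11, SLC3A2, SLC7A5, SLC7A1, SLC7A6, SLC1A4, SLC1A5, SLC38A1, SLC38A2 and SLC6A9. They were taken by symbol from the 34886 gene symbols of the mRNA tables, and all 10 were found. The cells were NCI-H446 (labelled H446), an established human cell line derived from small cell lung carcinoma. Of the 12 libraries of the series, 6 hold mRNA and are used here, 3 from cells given 40 µM of caffeic acid phenethyl ester (CAPE), a phenolic compound of propolis, for 8 h and 3 from cells given an equal volume of the solvent dimethyl sulfoxide (DMSO). No genetic change is named for either group. Whether replicates came from separate cultures is not stated in the labels, and p-values therefore reflect only how far these libraries differ, which may be technical.

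Cells answer a shortage of amino acids or an excess of unfolded proteins by phosphorylating the initiation factor eIF2, which lowers general translation and raises the translation of the transcription factor ATF4. ATF4 is known to act on genes for amino acid uptake, amino acid synthesis and tRNA charging, and several transporters also respond to NRF2, the factor of the electrophile response, or to MYC. Some of the transporters are single proteins. Others are pairs in which a light chain of the SLC7 family carries the amino acid and the heavy chain SLC3A2, also called CD98 or 4F2hc, brings it to the membrane.

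The mRNA libraries held 17569997 to 20917508 estimated counts. The labelled cell type was checked against its markers on the scale of TPM, a relative abundance that corrects for transcript length. The neuroendocrine markers NEUROD1, INSM1, CHGA, CHGB, NCAM1 and SYP lay between 0 and 0.547 TPM in every library, DLL3 reached at most 0.762 TPM and GRP was listed at 0. UCHL1, another marker of these tumours, lay between 15.7 and 24.3 TPM, YAP1 lay between 14.3 and 73.6 TPM and the keratin KRT7 between 1510 and 2750 TPM. The 13 listed small cell lung cancer markers summed to 57.8 to 121 TPM in DMSO and 223 to 225 TPM in CAPE, most of it ENO2 in CAPE (134 to 144 TPM). Summed levels in DMSO and CAPE were 3039 to 5341 and 2676 to 2811 TPM for 6 epithelial markers, 13.6 to 49.4 and 49.1 to 58.8 TPM for 6 fibroblast markers, and 1.77 to 5.02 and 2.23 to 5.83 TPM for 7 immune and endothelial markers, of which CD3E was listed at 0 throughout. The part of these markers in the results below was not tested. One library, DMSO 3, stood apart from the other 5, with a TMM scaling factor of 0.699 against 1.07 to 1.09. Each result is therefore given with all 6 libraries and without DMSO 3.

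The promoter sequences are shown first, because the factors named above bind short DNA elements. RefSeq windows of 300 bases (GRCh38.p14, 250 bases before and 50 after each annotated start) existed for 9 of the 10 genes, 15 windows in all. SLC7A11 had no entry. The motif TGATGNAA, the core of the element bound by ATF4 with C/EBP partners, was searched on both strands and lay in 5 of the 15 windows, 1 each of 5 genes, against 3.62% of all 35116 windows. The 5 matches are printed 5′ to 3′ on the gene's strand with the motif in capitals, in short stretches of up to 30 bases.
SLC1A4, chr2:64989381-64989410, plus strand, motif from position -7: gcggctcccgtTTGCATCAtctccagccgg
SLC3A2, chr11:62881725-62881748, plus strand, motif from position 38: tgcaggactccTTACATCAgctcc
SLC38A1, chr12:46266502-46266531, minus strand, motif from position -4: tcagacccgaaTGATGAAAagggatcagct
SLC7A1, chr13:29595663-29595692, minus strand, motif from position 8: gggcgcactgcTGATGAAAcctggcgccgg
SLC1A5, chr19:46784893-46784922, minus strand, motif from position -97: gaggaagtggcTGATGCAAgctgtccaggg
Positions count from 1 at the start of that window's transcript, and for SLC1A4, SLC3A2, SLC38A1 and SLC1A5 the window belongs to a start downstream of the gene's first one. The matches in SLC1A4 and SLC3A2 are on the opposite strand, so the capitals show the reverse complement of the motif.

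A pair of further motifs were searched in the same way. TGACNNNGC, the core of the antioxidant response element bound by NRF2, lay in 5 of the 15 windows, of 5 genes, against 13.3% of all windows, and CACGTG, the E-box bound by MYC among others, in 2 of the 15 against 7.26%. The SLC3A2 window holds TGACNNNGC from position -37 on the gene's strand, and 30 bases around it are printed here because the same window holds the ATF4 motif. The SLC7A1 window also holds both, with TGACNNNGC from position -85.
SLC3A2, chr11:62881652-62881681, plus strand: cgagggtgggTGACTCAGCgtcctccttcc
A window of SLC1A5 holds both TGACNNNGC and the E-box, from positions -111 and -50. SLC7A5, the most abundant of the transporters, holds the E-box from position -130 before its first start, and TGACNNNGC from position -2 in the same window.
SLC7A5, chr16:87869602-87869667, minus strand: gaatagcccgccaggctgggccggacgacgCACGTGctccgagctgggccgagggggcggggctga
A match is a description of the letters and not a binding site, and windows of one gene are not independent of each other.

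Levels of different genes are compared in TPM. SLC7A5 was the highest of 41 cell-surface amino acid transporter genes examined (these 10 and 31 others) in every library and SLC3A2 the second. Among the 10 genes alone, the order below them in CAPE was SLC38A2 (482.5 to 569 TPM), SLC1A5 (294 to 305 TPM) and SLC38A1 (199 to 209 TPM). SLC6A9, SLC7A6 and SLC7A11 followed at 64.0 to 84.9 TPM with SLC7A6 overlapping both neighbours, and SLC7A1 (42.1 to 44.9 TPM) and SLC1A4 (26.8 to 27.7 TPM) came last. In DMSO 1 and DMSO 2 SLC38A2 (280.1 to 343 TPM) was followed by SLC1A5 and SLC38A1, which overlapped at 176 to 186 TPM, and then by SLC7A6 (74.0 to 90.0 TPM) and SLC6A9 (36.9 to 37.3 TPM). SLC7A11 and SLC7A1 overlapped at 28.1 to 32.3 TPM, and SLC1A4 (11.9 to 12.1 TPM) was again the lowest. In DMSO 3 SLC1A5 (180 TPM) came next among the 10 after SLC7A5 and SLC3A2, and SLC7A11 (3.10 TPM) came last. The 10 genes together made up 80.1%, 80.8% and 75.4% of the summed TPM of the 41 genes in DMSO 1 to 3 and 83.5%, 83.8% and 84.2% in CAPE 1 to 3. Their summed level was 2061 to 2665 TPM in DMSO and 3512 to 3726 TPM in CAPE, so the groups did not overlap. The highest gene outside the 10 was SLC38A5, a glutamine and serine transporter, with 474 to 627 TPM in DMSO and 475 to 542 TPM in CAPE, which overlapped with SLC38A2 in CAPE and lay above it in DMSO.

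The comparison of CAPE with DMSO asked which of these genes changed within 8 h. With all 6 libraries none of the 10 passed edgeR's quasi-likelihood test at an adjusted p under 0.05, where 1.95% of all 13595 genes tested passed (1.49% higher, 0.456% lower). SLC7A11, SLC7A1, SLC1A4 and SLC6A9 had an unadjusted p under 0.05, as did 2183 of the 13595 genes tested. The DESeq2 Wald test called 3 of the 10 higher, SLC1A4, SLC6A9 and SLC7A1, where it called 5.51% of all genes. Without DMSO 3, 9 of the 10 were higher with CAPE and 1, SLC7A6, was lower, where 41.2% of all 13919 genes tested passed (20.4% higher, 20.8% lower). The median log2 fold change of the 10 was 0.59 with 6 libraries and 0.50 without DMSO 3, against -0.01 and 0.00 over all genes tested. In 6 of the 10, the CPM of all CAPE libraries lay above that of all DMSO libraries, a pattern held by 21.4% of all genes tested. Values below are in CPM, counts scaled to a common library size with TMM factors, and since the samples are bulk RNA, a change in RNA per cell and a change in the share of cells that carry it cannot be told apart.

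**Figure D1:**
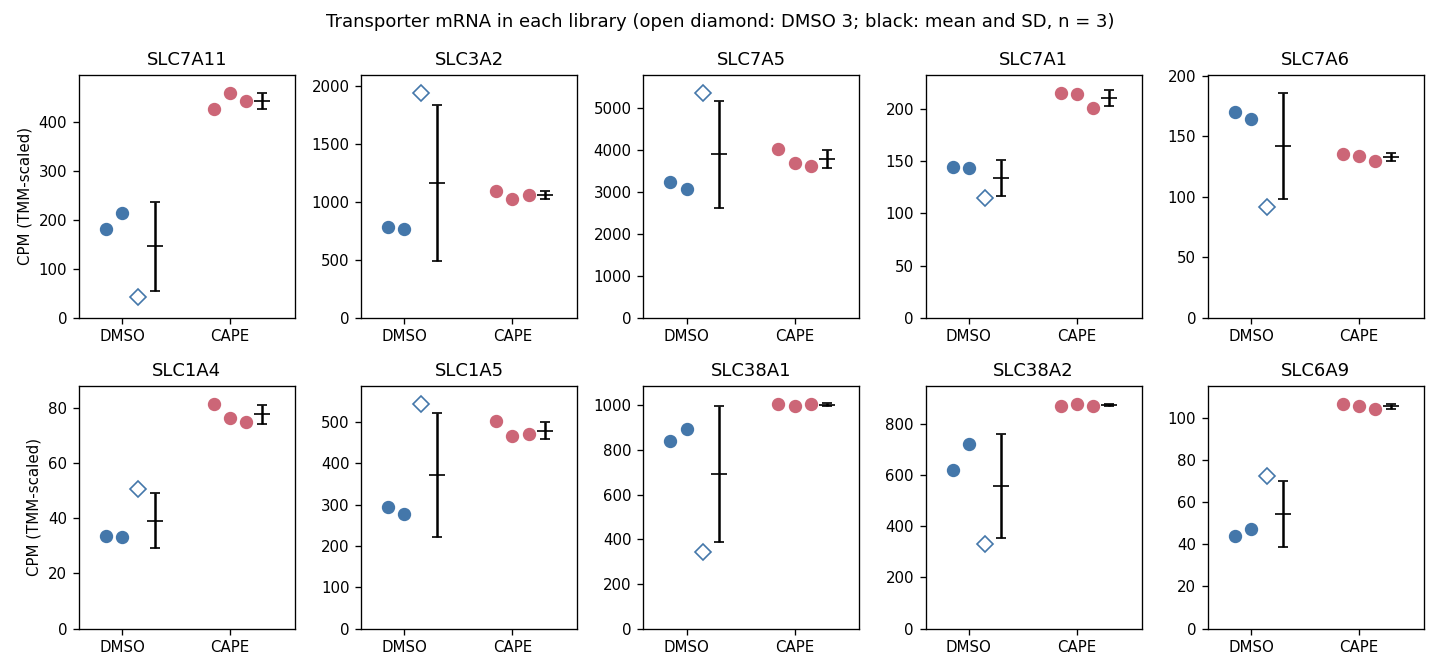
Level in CPM (TMM-scaled, vertical axis from 0) of each of the 10 transporter genes in the 3 DMSO and 3 CAPE libraries, with the mean and SD of each group (n = 3). The CAPE libraries lie close together in every panel, while DMSO 3 (open diamond) lies below both other DMSO libraries in 5 genes and above both in 5.

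SLC7A11, at chromosome 4, 138164097 to 138242349 (GRCh38), encodes xCT, the light chain of the cystine-glutamate exchanger system xc-, which supplies cysteine for glutathione. It measured 181, 213 and 42.6 CPM in DMSO 1 to 3 and 427, 459 and 442 CPM in CAPE 1 to 3. All CAPE libraries were higher than all DMSO libraries, and DMSO 3 was far below the other DMSO libraries. The log2 fold change was 1.60 (SE 0.56, edgeR adjusted p = 0.254) with 6 libraries. Without DMSO 3 it was 1.16 (SE 0.06, edgeR adjusted p = 1.18e-09), a 2.24-fold rise.

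SLC3A2, at chromosome 11, 62856109 to 62888860, encodes the heavy chain that SLC7A11, SLC7A5 and SLC7A6 share. It stood at 786, 764 and 1939 CPM in DMSO and at 1095, 1021 and 1060 CPM in CAPE. In CPM the CAPE libraries lay between the first pair of DMSO libraries and DMSO 3, so the groups overlapped. The log2 fold change was -0.14 (SE 0.39, edgeR adjusted p = 0.839) with 6 libraries and 0.45 (SE 0.05, edgeR adjusted p = 2.48e-06) without DMSO 3, so its sign in edgeR turned with that library. On the TPM scale SLC3A2 stood at 700, 689 and 806 TPM in DMSO and at 1006, 933 and 979 TPM in CAPE, with no overlap. With all 6 libraries, limma on log2(TPM + 1) gave it a difference of 0.41 and no call (adjusted p = 0.219).

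SLC7A5, at chromosome 16, 87830023 to 87869507, encodes LAT1, which exchanges glutamine for leucine and other large neutral amino acids. It stood at 3240, 3058 and 5350 CPM in DMSO and at 4011, 3690 and 3607 CPM in CAPE. Again only DMSO 3 lay above the CAPE libraries in CPM, and the log2 fold change went from -0.04 (SE 0.27, edgeR adjusted p = 0.926) to 0.26 (SE 0.06, edgeR adjusted p = 0.00224) without it. On the TPM scale SLC7A5 stood at 1136, 1080 and 934 TPM in DMSO and at 1407, 1293 and 1277 TPM in CAPE, with no overlap. With all 6 libraries, limma on log2(TPM + 1) gave SLC7A5 a difference of 0.34 and no call (adjusted p = 0.346). Its pseudogenes SLC7A5P1 and SLC7A5P2, which could take some of its reads, held 5 to 32 estimated counts per library.

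SLC7A6, at chromosome 16, 68264526 to 68301819, encodes y+LAT2, a light chain that exports arginine in return for glutamine and sodium. It was the only one of the 10 to fall, and only without DMSO 3. It stood at 170, 164 and 91.1 CPM in DMSO and at 135, 133 and 129 CPM in CAPE, so the CAPE libraries lay below DMSO 1 and DMSO 2 and above DMSO 3. The log2 fold change was -0.10 (SE 0.26, edgeR adjusted p = 0.825) with 6 libraries and -0.34 (SE 0.04, edgeR adjusted p = 2.93e-05) without DMSO 3. On the TPM scale the call was lost, with a difference of -0.17 on log2(TPM + 1) without DMSO 3 (SE 0.12, limma adjusted p = 0.366) and 90.0, 74.0 and 13.8 TPM in DMSO against 74.0, 80.8 and 64.0 TPM in CAPE.

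SLC7A1, at chromosome 13, 29509414 to 29595688, encodes CAT-1, a carrier of arginine and lysine that works without a heavy chain. It stood at 144, 143 and 114 CPM in DMSO and at 216, 214 and 201 CPM in CAPE. All CAPE libraries were higher than all DMSO libraries. The log2 fold change was 0.65 (SE 0.16, edgeR adjusted p = 0.128) with 6 libraries, and DESeq2 called it (0.60, adjusted p = 0.0187). Without DMSO 3 the rise was 0.54 (SE 0.05, edgeR adjusted p = 3.04e-07), 1.46-fold.

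SLC1A4 and SLC1A5 encode ASCT1 and ASCT2, sodium-dependent exchangers of small neutral amino acids, of which ASCT2 also carries glutamine. SLC1A4 (chromosome 2, 64988479 to 65023865) stood at 33.5, 33.2 and 50.8 CPM in DMSO and at 81.6, 76.5 and 74.9 CPM in CAPE, with no overlap. Its log2 fold change was 0.99 (SE 0.21, edgeR adjusted p = 0.0952) with 6 libraries and 1.21 (SE 0.06, edgeR adjusted p = 1.52e-09), a 2.32-fold rise, without DMSO 3. DESeq2 called it with all 6 libraries (0.94, adjusted p = 0.00959). Each CAPE library of SLC1A4 was above each DMSO library, whereas in SLC1A5 this held only without DMSO 3. SLC1A5 (chromosome 19, 46774883 to 46788594) stood at 295, 277 and 545 CPM in DMSO and at 502, 466 and 472 CPM in CAPE, so DMSO 3 was above every CAPE library. It gave 0.37 (SE 0.29, edgeR adjusted p = 0.467) with 6 libraries and rose by 0.74 (SE 0.05, edgeR adjusted p = 9.17e-09) without DMSO 3. On the TPM scale DMSO 3 did not stand apart in SLC1A5, which stood at 176, 176 and 180 TPM in DMSO and at 305, 294 and 295 TPM in CAPE. With all 6 libraries, limma on log2(TPM + 1) gave it a difference of 0.74 and called it (adjusted p = 0.0393), the only one of the 10 called on that scale. With no filter on TPM the adjusted p was 0.0547 and the call was lost.

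SLC38A1 and SLC38A2 encode SNAT1 and SNAT2, sodium-coupled carriers of glutamine, alanine and other small neutral amino acids, and SNAT2 is known for its rise in amino acid shortage. SLC38A1 (chromosome 12, 46183063 to 46269043) stood at 842, 892 and 342 CPM in DMSO and at 1007, 994 and 1005 CPM in CAPE. SLC38A2 (chromosome 12, 46358188 to 46372773) stood at 619, 721 and 331 CPM in DMSO and at 872, 880 and 872 CPM in CAPE. In both genes the groups did not overlap and DMSO 3 was the lowest library. With 6 libraries the log2 fold changes were 0.53 (SE 0.37) and 0.65 (SE 0.30), with edgeR adjusted p of 0.41 and 0.337. Without DMSO 3 both rose, by 0.21 (SE 0.04, edgeR adjusted p = 0.00199) and 0.38 (SE 0.06, edgeR adjusted p = 6.98e-05). The smaller one, SLC38A1, missed the threshold on log2(TPM + 1) without DMSO 3 (0.17, SE 0.05, limma adjusted p = 0.0527).

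SLC6A9, at chromosome 1, 43996483 to 44031462, encodes GlyT1, a sodium- and chloride-dependent carrier of glycine, which is a building block of glutathione and a donor of one-carbon units. It stood at 43.7, 47.0 and 72.4 CPM in DMSO and at 107, 105 and 104 CPM in CAPE. All CAPE libraries were higher than all DMSO libraries. The log2 fold change was 0.95 (SE 0.23, edgeR adjusted p = 0.124) with 6 libraries. Without DMSO 3 it was 1.21 (SE 0.06, edgeR adjusted p = 4.26e-10), a 2.31-fold rise, and DESeq2 called it with all 6 (0.90, adjusted p = 0.0246).

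**Figure D2:**
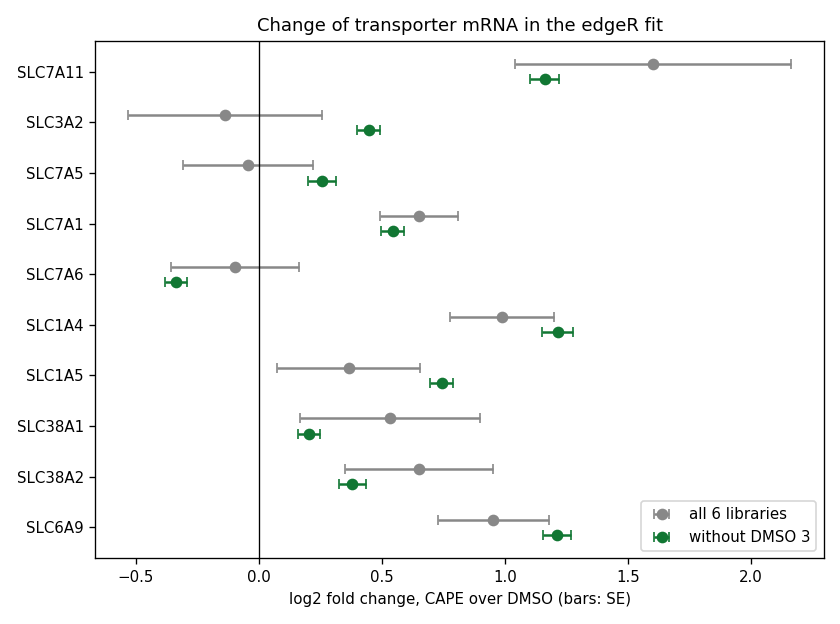
Log2 fold change of CAPE over DMSO for each transporter (horizontal axis) with its SE, from the edgeR fit of all 6 libraries (grey) and the fit without DMSO 3 (green). SLC7A11, SLC1A4 and SLC6A9 lie highest without DMSO 3 at 1.16 to 1.21, and SLC7A6 lies below 0 at -0.34.

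The size of the change without DMSO 3 fell into 2 ranges among the 9 genes that rose. SLC1A4, SLC6A9 and SLC7A11 rose 2.24-fold to 2.32-fold, and the other 6 rose 1.15-fold to 1.67-fold. The 2 genes with the highest TPM, SLC7A5 and SLC3A2, rose 1.19-fold and 1.36-fold.

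DMSO 3 differed from DMSO 1 and DMSO 2 in a way that moved with transcript length. Over all genes tested, the decile with the fewest counts per TPM, which are the shortest transcripts, lay a median of 0.94 on the log2 CPM scale above the mean of DMSO 1 and DMSO 2, and the decile of the longest lay at -1.02. Among the 10 transporters the deviation was -2.20 in SLC7A11, whose relative length was 4.94 times that of the median gene, -1.34 in SLC38A1 (3.62 times) and -0.33 in SLC7A1 (3.70 times). It was 1.32 in SLC3A2 (0.843 times) and 0.67 in SLC6A9 (0.924 times). SLC7A5 and SLC1A4 lay above the other DMSO libraries by 0.77 and 0.60 although their relative lengths were 2.15 and 2.10, and SLC38A2 and SLC7A6 lay below by -1.01 and -0.87 at 1.63 and 1.55. On the log2 TPM scale the deviation of DMSO 3 was larger in size than in log2 CPM for 6 of the 10, with -3.28 in SLC7A11, -2.62 in SLC38A2, -2.56 in SLC7A6, -2.47 in SLC38A1, -1.40 in SLC7A1 and -0.86 in SLC6A9. It was smaller in SLC3A2 (0.21), SLC7A5 (-0.25), SLC1A4 (-0.48) and SLC1A5 (0.03). The part of transcript length in the values of DMSO 3 was not tested for single genes.

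**Figure D3:**
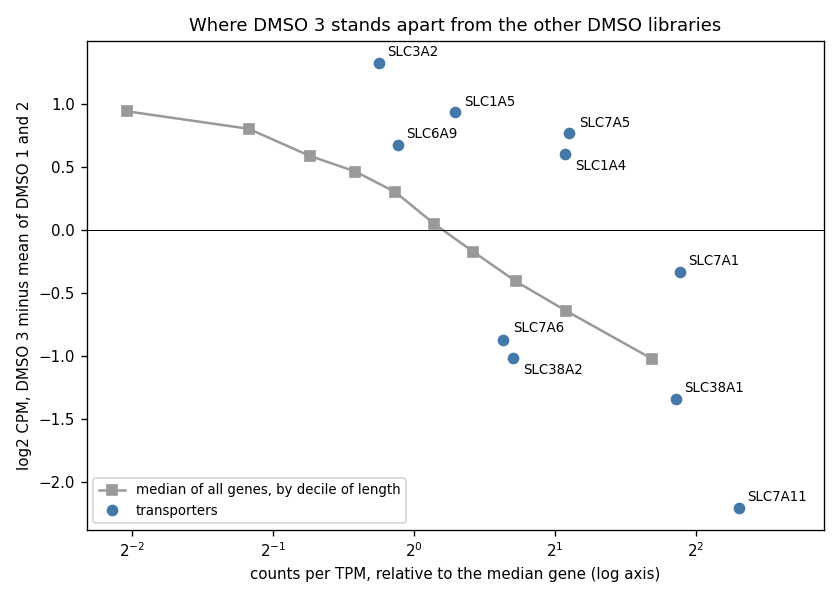
Difference in log2 CPM between DMSO 3 and the mean of DMSO 1 and DMSO 2 (vertical axis) against counts per TPM relative to the median gene (horizontal axis, log scale), for the 10 transporters (blue) and as medians of all tested genes by decile of length (grey). The grey line falls from 0.94 to -1.02, and SLC7A11, the longest of the 10, lies lowest at -2.20.

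The light chains SLC7A5, SLC7A6 and SLC7A11 carried nearly all mRNA of the light chains that pair with SLC3A2. SLC7A5 made up 90.5%, 91.0% and 98.1% of the summed light chain TPM in DMSO 1 to 3 and 90.9%, 89.4% and 90.6% in CAPE 1 to 3. SLC7A11 made up 2.24%, 2.72% and 0.325% in DMSO against 4.24%, 4.89% and 4.77% in CAPE, and SLC7A6 made up 7.17%, 6.24% and 1.45% in DMSO against 4.78%, 5.59% and 4.54% in CAPE. SLC7A7, the next of them, reached at most 0.0749%. In the share of SLC7A11 the groups did not overlap, and in that of SLC7A6 the CAPE libraries lay between DMSO 3 and the other DMSO libraries. The level of SLC3A2 per unit of summed light chains was 0.558, 0.581 and 0.846 in DMSO against 0.650, 0.646 and 0.695 in CAPE. The groups overlapped, and the difference of 0.03 on the log2 scale did not pass (two-sided exact permutation test, p = 1, where 3 against 3 cannot go below 0.1). Without DMSO 3 the difference was 0.22 (exact p = 0.2, the smallest that 2 against 3 allows).

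**Figure D4:**
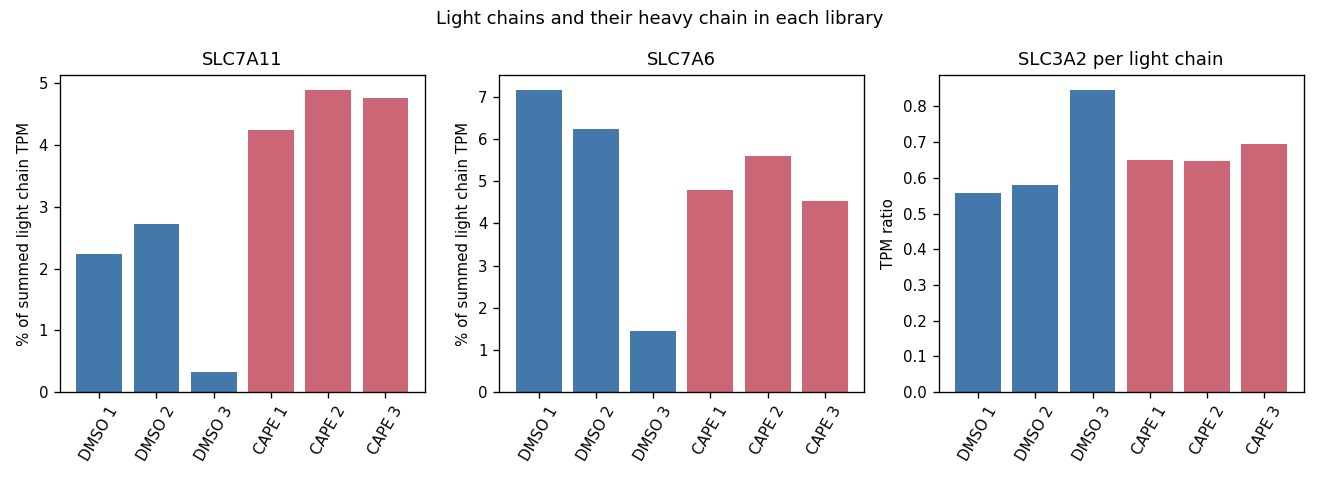
Share of summed light chain TPM held by SLC7A11 and by SLC7A6, and TPM of SLC3A2 per TPM of summed light chains, as 1 bar per library (blue DMSO, red CAPE, axes from 0). SLC7A11 holds 4.24% to 4.89% in CAPE against 0.325% to 2.72% in DMSO, and DMSO 3 has the highest SLC3A2 ratio, 0.846.

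Ratios within 2 other pairs of related transporters were computed in the same way, with no test. SLC38A2 per SLC38A1 was 1.59, 1.85 and 1.55 in DMSO against 2.45, 2.82 and 2.43 in CAPE on the TPM scale, with no overlap. SLC1A5 per SLC1A4 was 14.6, 14.8 and 20.9 in DMSO against 10.98, 10.8 and 10.996 in CAPE, again with no overlap. In CPM the separation of SLC38A2 per SLC38A1 was lost, since DMSO 3 then had the highest ratio. DMSO 3 had 331 CPM of SLC38A2 and 342 CPM of SLC38A1, against 872 to 880 and 994 to 1007 CPM in CAPE. Counts per TPM of SLC38A2, relative to the median gene of the library, were 1.67, 1.59 and 2.23 in DMSO against 1.30, 1.19 and 1.39 in CAPE. Without DMSO 3 its rise was 0.74 on log2(TPM + 1) (limma adjusted p = 0.00425) and 0.38 in log2 CPM. The split of its reads between transcripts of different length was not analysed here.

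The genes most like SLC7A11 and SLC3A2 in their course over the 6 libraries were found by the Euclidean distance of centred log2 CPM among 8400 genes. For SLC7A11 they were DNHD1, ZDBF2 and TBC1D8B (distances 0.340, 0.398 and 0.410), each with its lowest CPM in DMSO 3. For SLC3A2 they were CMTM3, CNPPD1 and HLA-E (0.0672, 0.0781 and 0.0867), each with its highest CPM in DMSO 3. Because DMSO 3 enters the distance and deviates strongly in both genes, its place in these neighbours followed from how they were chosen.

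Of the other 31 cell-surface amino acid transporters 16 were tested. With 6 libraries 1 of them passed, where 1.95% of all genes did. Without DMSO 3, 4 were higher and 2 lower, where 20.4% and 20.8% of all genes were, and the medians in the 2 fits were 0.51 and 0.24. The member that passed with 6 libraries was SLC1A1, a glutamate and cysteine carrier, which rose from 31.7 ± 2.35 to 56.0 ± 1.94 CPM (mean ± SD, n = 3 here and below, edgeR adjusted p = 0.0459). SLC1A3, a glutamate carrier, measured 17.5 ± 3.19 and 34.6 ± 0.808 CPM (adjusted p = 0.0637) and passed without DMSO 3, as did SLC6A6, the taurine carrier (0.39 on the log2 scale), and the weakly expressed SLC6A17. SLC7A2, a carrier of arginine and lysine like SLC7A1, fell by 0.46 (log2, SE 0.05, edgeR adjusted p = 3.49e-06) once DMSO 3 was left out, while SLC7A1 rose. SLC43A2, a carrier of large neutral amino acids, was the other to fall (-0.48). For SLC38A5 the log2 fold change without DMSO 3 was 0.02 (edgeR adjusted p = 0.679). SLC6A6, SLC43A2 and SLC38A5 were chosen for mention after their values were seen.

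**Figure D5:**
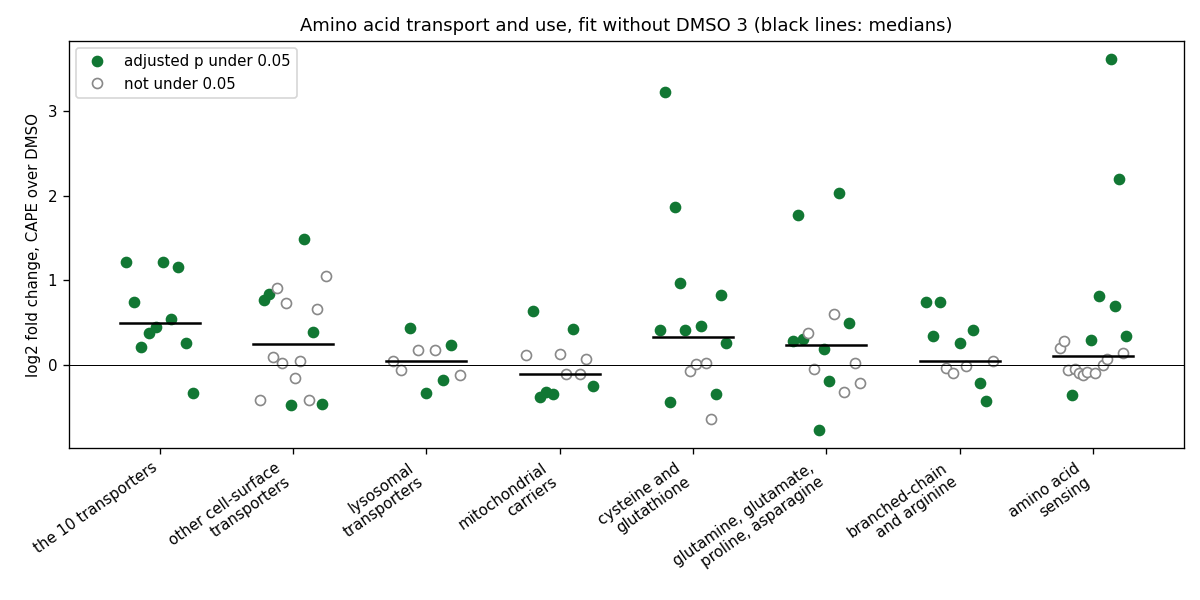
Log2 fold change of CAPE over DMSO in the fit without DMSO 3 (vertical axis) for each tested gene of 8 groups, filled where the adjusted p was under 0.05, with the median of each group as a black line. The median of the 10 transporters is 0.50, and those of lysosomal transporters and mitochondrial carriers are 0.05 and -0.11.

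In the 2 edgeR fits, transporters of internal membranes passed only without DMSO 3, where 41.2% of all genes passed, and in both directions. None of 9 lysosomal transporters passed with 6 libraries in edgeR, and 0 had an unadjusted p under 0.05, beside 2183 of all 13595 genes tested. Without DMSO 3, 2 were higher and 2 lower, beside 20.4% and 20.8% of all genes. Over all 6 libraries, SLC38A9, a lysosomal arginine sensor of mTORC1, went from 32.2 ± 3.27 to 40.1 ± 0.948 CPM. SLC36A1, a proton-coupled exporter of small amino acids, went from 26.7 ± 2.73 to 22.4 ± 0.252 CPM over the same libraries. None of 11 mitochondrial carriers passed with 6 libraries in edgeR, and 2 had an unadjusted p under 0.05, again beside 2183 of 13595 genes. Without DMSO 3, 2 were higher and 4 lower, beside 20.4% and 20.8% of all genes. SFXN3, a serine carrier, measured 85.5 ± 20.3 CPM in all DMSO libraries, 73.8 ± 2.67 CPM in DMSO 1 and DMSO 2, and 115 ± 1.97 CPM in CAPE. The aspartate-glutamate carriers SLC25A12 and SLC25A13 fell by 0.38 and 0.32 (log2) in the fit without DMSO 3.

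Enzymes that use the imported amino acids were listed by pathway. Of 14 genes of cysteine and glutathione metabolism 2 rose with 6 libraries and none fell, beside 1.95% of all genes. Without DMSO 3, 8 rose and 2 fell, beside 20.4% and 20.8% of all genes, with a median of 0.33. CHAC1, which breaks down glutathione, rose from 6.47 ± 3.62 to 41.4 ± 2.74 CPM (edgeR adjusted p = 0.0353), and CTH, which makes cysteine from cystathionine, from 7.74 ± 0.632 to 27.0 ± 1.98 CPM (adjusted p = 0.0112). GCLC, the catalytic subunit of the first enzyme of glutathione synthesis, rose by 0.97 (log2, edgeR adjusted p = 7.58e-07) without DMSO 3 but did not pass with 6 libraries (adjusted p = 0.161). Of 14 enzymes of glutamine, glutamate, proline and asparagine, 1 rose with 6 libraries (all genes 1.95%), and 6 rose and 2 fell without DMSO 3 (all genes 20.4% and 20.8%). The first was GPT2, a mitochondrial alanine transaminase, which went from 59.9 ± 14.03 to 213 ± 3.54 CPM (adjusted p = 0.0202). ASNS, asparagine synthetase, rose by 1.78 without DMSO 3, and GLUL, glutamine synthetase, fell by 0.77. With 6 libraries their log2 fold changes were 1.31 and -1.11, and neither passed (edgeR adjusted p = 0.151 and 0.128). None of 11 branched-chain and arginine enzymes passed with 6 libraries in edgeR, and 1 had an unadjusted p under 0.05, beside 2183 of all 13595 genes tested. Without DMSO 3, 5 rose and 2 fell (all genes 20.4% and 20.8%). Among those that rose was ASS1, argininosuccinate synthase, by 0.74. With 6 libraries its log2 fold change was 0.07 (edgeR adjusted p = 0.92).

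Among 15 stress kinases and transcription factors known to act on transporter genes, 3 rose with 6 libraries and none fell (all genes 1.95%), and 7 rose and 6 fell without DMSO 3 (all genes 20.4% and 20.8%). DDIT3, also called CHOP, rose from 4.85 ± 0.726 to 22.2 ± 1.74 CPM (edgeR adjusted p = 0.0106), ATF3 from 7.49 ± 2.28 to 50.7 ± 3.84 CPM (adjusted p = 0.0135), and CEBPG, a partner of ATF4, from 36.9 ± 5.69 to 79.1 ± 2.39 CPM (adjusted p = 0.0372). TRIB3, a pseudokinase that restrains ATF4, stood at 38.3, 45.2 and 132 CPM in DMSO and at 129, 116 and 119 CPM in CAPE, and passed without DMSO 3 (1.53, edgeR adjusted p = 5.30e-10) but not with it. ATF4, MYC and NFE2L2, which encodes NRF2, fell outside the rule for named genes and were chosen after their values were seen. ATF4 stood at 359, 367 and 878 CPM in DMSO and at 531, 513 and 526 CPM in CAPE. Its log2 fold change of -0.03 (edgeR adjusted p = 0.964) became 0.52 (adjusted p = 6.57e-08) without DMSO 3. NFE2L2 had 148, 146 and 90.9 CPM in DMSO against 114, 109 and 114 CPM in CAPE. Its log2 fold change was -0.19 (edgeR adjusted p = 0.601) with 6 libraries, and it fell by 0.39 (log2, edgeR adjusted p = 8.85e-06) without DMSO 3. MYC had 484, 499 and 760 CPM in DMSO against 425, 398 and 404 CPM in CAPE. Its log2 fold change was -0.51 (edgeR adjusted p = 0.325) with 6 libraries and -0.27 (edgeR adjusted p = 0.000107) without DMSO 3. Of 10 binding partners and regulators of the transporter proteins, 2 rose with 6 libraries (all genes 1.95%). They were SGK1 (40.6 ± 2.29 to 80.6 ± 1.02 CPM), a kinase that restrains NEDD4L, and ITGB3, an integrin of the class that binds CD98 (1.38 ± 0.43 to 5.15 ± 0.176 CPM), with edgeR adjusted p of 0.0261 and 0.0353. Without DMSO 3, 5 rose and 2 fell (all genes 20.4% and 20.8%), and both NEDD4 and NEDD4L, ubiquitin ligases that act on transporters, were among the higher (0.59 and 0.44). Of 18 genes of amino acid sensing upstream of mTORC1, 2 rose with 6 libraries (all genes 1.95%). They were SESN2, a leucine sensor (13.0 ± 5.05 to 46.4 ± 1.59 CPM, edgeR adjusted p = 0.0405), and RRAGD, a lysosomal GTPase (0.231 ± 0.11 to 2.66 ± 0.771 CPM, edgeR adjusted p = 0.0256). Without DMSO 3, 6 of these 18 rose and 1 fell (all genes 20.4% and 20.8%).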

How the data were processed

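The series holds mRNA and microRNA libraries of NCI-H446 cells, and only the 6 mRNA libraries were used. The authors deposited estimated counts per gene symbol, whole numbers as deposited, and TPM per gene symbol, made with kallisto 0.46.1 and bcl2fastq on GRCh38, per the submitters' processing notes. The summing of transcripts to genes, the annotation and the use of strand: not given in the sources used here. Counts were filtered with filterByExpr, scaled with TMM factors and tested with edgeR 4.0.16 (quasi-likelihood F test, R 4.3.3) with group as the only term and Benjamini-Hochberg adjustment over all genes tested, threshold 0.05. The SE is the log2 fold change divided by the square root of F. Alternatives were DESeq2 1.42.0 and limma 3.58.1 with trend on log2(TPM + 1), which understates changes of low genes, for genes of at least 1 TPM in 3 libraries. TMM factors move with the composition of a library.

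The members and gene lists were chosen with earlier results of these data known. The rule named all 10 members, the 3 genes of each other list with the smallest p in either fit, and the 3 nearest genes (average log2 CPM of at least 3, prior count 2) to SLC7A11 and SLC3A2. Not all of these are given values in the text. Replicates of a group differed by more than counting noise (chi-square per degree of freedom 3.22 to 321), so none was counted as a copy. Whether numbers in the titles pair the libraries is not known, and the main fit used no pairing. Deviations from the group mean correlated at -0.19, 0.14 and -0.01 for numbers 1 to 3. DMSO 3 dominates the deviations in DMSO (chi-square 315 and 321 against 5.00 for DMSO 1 and DMSO 2). These correlations therefore cannot show whether a pairing exists. On simulated counts of 13595 genes with 6 libraries, edgeR found 0 (of 67) at 1.5-fold, 1 (of 67) at 2-fold and 43 (of 66) at 4-fold, and called 2 unchanged genes. On 13919 genes without DMSO 3 the numbers were 53, 66 and 66, and 16 unchanged genes were called. The simulation gave each gene the same fitted dispersion in every library, whereas in the data 1 library, DMSO 3, stands apart. With 6 libraries its numbers therefore do not give the share of real changes found. SGK1, for one, passed that fit at a log2 fold change of 0.99. A planned comparison of protein sequences was not run.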

Additional observations from a re-analysis of the deposited data

How the results depend on the processing

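The number of genes changed (265) ranged from 0 to 5731 when single libraries were left out. It was 9, 17 and 5731 without DMSO 1, 2 and 3 and 0, 6 and 0 without CAPE 1, 2 and 3. The number of the 10 transporters changed (0) was 10 without DMSO 3 and 0 without any other single library. Leaving out CAPE 1 or CAPE 3 gave 0 genes in edgeR, with 1178 and 1099 at an unadjusted p under 0.05. Settings that leave out DMSO 3 together with another choice were added after seeing the data. With all 6 libraries the genes changed numbered 857 in DESeq2, 130 in limma on log2(TPM + 1), 96 with a pseudocount of 0.1 and 64 with no TPM filter. The transporters changed numbered 3 in DESeq2, 2 with library totals and 1 in limma with either pseudocount, and 0 in limma with no filter. Library totals moved the median log2 fold change of all genes to 0.17 and log2(TPM + 1) to 0.33. Without DMSO 3 the genes changed numbered 5733 with DESeq2 size factors, 5648 with library totals, 4510 in DESeq2 and 2929 in limma on log2(TPM + 1), and the transporters 10, 10, 10 and 8. The replicate block, a pairing by title number alone, gave 0 genes in edgeR with 6 libraries (1384 at an unadjusted p under 0.05) and 0 transporters, and 5025 genes and 10 transporters without DMSO 3. Not every library correlated best with its own number, but DMSO 3 dominates these correlations, so they cannot show whether the numbers pair.

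The sign of SLC3A2, SLC7A5 and SLC7A6 turned. SLC3A2 (-0.14) ranged from -0.37 to 0.45 over single libraries left out, and was 0.18 with library totals, 0.016 with the replicate block, and 0.41 in limma on log2(TPM + 1), with a pseudocount of 0.1 and with no filter. Without DMSO 3 it was 0.45 with DESeq2 size factors, 0.46 with library totals, 0.44 in DESeq2, 0.49 in limma and 0.45 with the replicate block. SLC7A5 (-0.04) ranged from -0.20 to 0.26, and was 0.22 with library totals, 0.0052 with the replicate block and 0.34 in limma with either pseudocount or no filter. Without DMSO 3 it was 0.26, 0.27, 0.25, 0.26 and 0.29 in the same 5 settings. SLC7A6 (-0.10) ranged from -0.34 to 0.048, and was 0.026 with library totals, 0.66 in limma on log2(TPM + 1) with or without the filter, and 0.68 with a pseudocount of 0.1. The log2 ratio of SLC3A2 to light chains (0.03) ranged from -0.080 to 0.22 over single libraries left out and was -0.083 with TMM-scaled counts. The cause of these turns was not tested. The other 7 transporters kept a positive sign in every setting run.

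Without DMSO 3, where 41.2% of all genes passed, the list members changed were 6 of 16 other cell-surface transporters, 4 of 9 lysosomal transporters and 6 of 11 mitochondrial carriers. Among enzymes they were 10 of 14 for cysteine and glutathione, 8 of 14 for glutamine to asparagine and 7 of 11 for branched-chain amino acids and arginine. The remaining lists had 13 of 15 stress kinases and factors, 7 of 10 binding partners and 7 of 18 amino acid sensing genes. With 6 libraries, where 1.95% of all genes passed, the numbers in the same order were 1, 0, 0, 2, 1, 0, 3, 2 and 2. Over all genes the number went from 265 with 6 libraries to 5731.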
